A study of Mus musculus with 6 samples.

Results

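Cathepsins are proteases of the lysosome, and cystatins are small proteins that block the cysteine cathepsins. The table of transcript levels was searched by symbol for 9 cathepsins (Ctsa, Ctsb, Ctsc, Ctsd, Ctsf, Ctsh, Ctsl, Ctss and Ctsz) and 1 cystatin (Cst3). All 10 were found among 36870 distinct symbols, and all 10 were among the 13266 genes that passed the filter on low values. The libraries came from bone marrow mesenchymal stem cells (BMMSCs) of C57BL/6 mice, which are adherent cells grown out of flushed marrow. There were 3 control libraries, from cells given a non-targeting siRNA according to the sample labels, and 3 libraries from cells given siRNAs against both Tet1 and Tet2, called siTet1/Tet2 below. The RNA-sequencing methods call the controls vehicle-treated. The labels give passage 2 for all 6 libraries, where the methods give passage 1, and no genotype, age, dose or time after transfection. The cells were selected by adherence to the dish, and the labels describe no sort. Nothing states that the 3 libraries of a group came from separate cultures or animals. The p-values therefore rest on the spread between these libraries, which may be technical, and also on that of other genes at a similar level.

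Cathepsins are made as inactive precursors, carried to the lysosome mostly by mannose 6-phosphate receptors, and activated there by acid and by other proteases. Cathepsin D is an aspartic protease, cathepsin A a serine carboxypeptidase, and cathepsins B, C, F, H, L, S and Z are cysteine proteases of the papain family. Macrophages and osteoclasts are rich in these enzymes, while stromal cells use them for the turnover of their own proteins and of collagen taken up from the matrix. Tet1 and Tet2 encode dioxygenases that oxidise 5-methylcytosine, a step in the removal of DNA methylation.

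Levels are given in RPKM, which divides a gene's reads by the length of its transcript and by the size of the library, so they can be compared between genes. Tet2 stood at 2.57, 4.08 and 3.71 RPKM in control replicates 1, 2 and 3 and at 0.358, 0.238 and 0.202 RPKM in the siTet1/Tet2 replicates, and was called lower by limma (log2 fold change -1.80, adjusted p = 2.88e-05). Tet1 was near the lowest listed value of 0.001 RPKM in every library (0.032 to 0.098 RPKM in controls, 0.001 to 0.010 RPKM in siTet1/Tet2) and was not tested, and Tet3 was not called (adjusted p = 0.508). The summed level of 15 macrophage markers was 6997 to 9068 RPKM in the controls and 14846 to 17988 RPKM in siTet1/Tet2, with 8 markers called higher, 4 called lower (Mrc1, Fcgr1, Msr1 and Aif1) and 3 not called (Emr1, Fcgr3 and Ptprc), of which the replicate block called Emr1 and Fcgr3 higher. The markers in these brackets, and Thy1, Lepr, Lum and Vcam1, were named after their values were seen. None of the 15 was at the lowest listed value, and the highest were Lyz2 (mean 4439 RPKM in controls, 11321 in siTet1/Tet2), Cd68 (875 and 1316) and Tyrobp (466 and 1164). The sum of 20 stromal markers was 1975 to 2452 RPKM in the controls and 328 to 564 RPKM in siTet1/Tet2. Of the 17 that could be tested, 14 were called lower, among them Acta2, Col1a1 and Col1a2, and 1, Vcam1, higher. Over all genes tested, 14.7% were called higher and 29.8% lower. The macrophage sum was thus above the stromal sum in both groups although the cells are named mesenchymal stem cells, and Lyz2 was most of the macrophage sum. Gene by gene the lists were mixed in the controls, where Acta2 (mean 788 RPKM) lay between Cd68 and Tyrobp. Of the stromal markers, 3 (Thy1, Lepr and Lum) did not reach a mean of 0.1 RPKM. The sum of 8 neutrophil markers was 10.3 to 10.4 RPKM in the controls and 22.9 to 31.9 RPKM in siTet1/Tet2. Among them S100a9 was at the lowest listed value in all 6 libraries. The sum of 8 osteoclast markers was 69.9 to 74.4 RPKM in the controls and 153 to 172 RPKM in siTet1/Tet2. Most of it was Atp6v0d2 (mean 57.6 RPKM in controls, 139 in siTet1/Tet2). In RNA from bulk cells, fewer cells of a type and less RNA per cell cannot be told apart.

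The cathepsins were among the most abundant transcripts of these cells, with Ctsd at the top. Together the 10 genes held 4.33%, 4.29% and 3.96% of the summed RPKM of all genes in the control replicates and 5.93%, 5.72% and 5.32% in the siTet1/Tet2 replicates. All 3 siTet1/Tet2 shares were above all 3 control shares. Ctsd alone ranked number 2 among all genes in each of the 6 libraries. In the controls the mean levels ran from Ctsd (8406 RPKM) through Ctsb (3250.0), Ctss (2051), Ctsl (1325), Ctsz (749.7), Cst3 (730.5), Ctsa (602), Ctsh (192) and Ctsc (154) to Ctsf (6.03). The ranges of neighbours in this order overlapped for Ctsz with Cst3, Cst3 with Ctsa, and Ctsh with Ctsc, and were apart for all other neighbours. In siTet1/Tet2 the order was Ctsd (13346), Ctsb (4493), Ctss (2084), Ctsl (1622), Cst3 (981), Ctsz (845), Ctsa (839), Ctsh (287), Ctsc (82.6) and Ctsf (11.4), with overlap for Ctsz and Ctsa alone. The position of Ctsc below Ctsh was thus blurred in the controls, although Ctsh was higher in 3 of 3 control libraries, and clear in siTet1/Tet2.

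**Figure D1:**
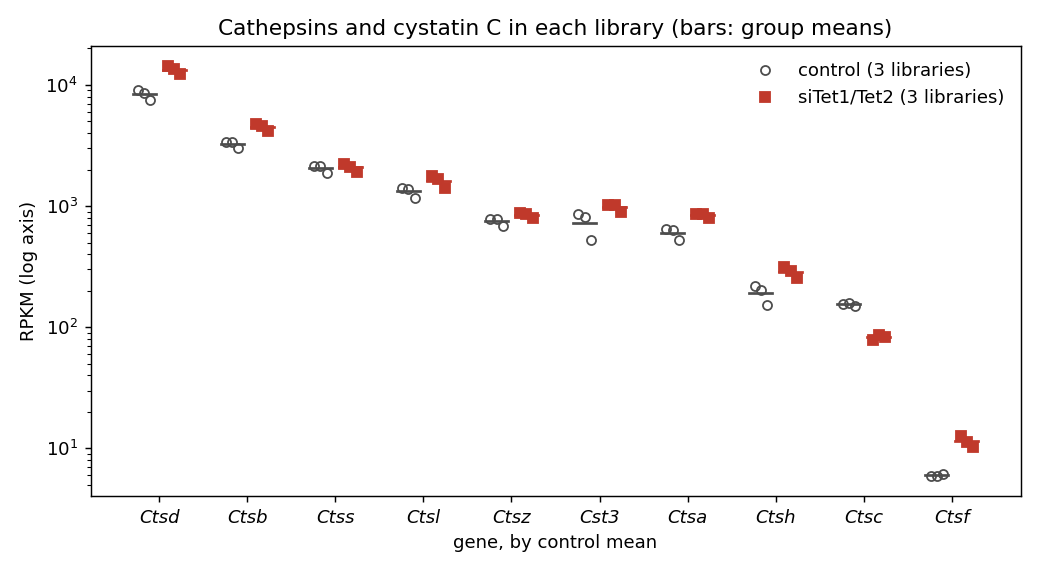
Levels of the 10 genes in each library, in RPKM on a log axis, with genes ordered by their control mean and 1 point per library. Ctsc is the gene whose siTet1/Tet2 points lie wholly below the control points, the Ctss points of both groups overlap, and for the other 8 genes the siTet1/Tet2 points lie wholly above.

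Most of the family stood higher in siTet1/Tet2, while Ctsc, the dipeptidyl peptidase that activates granule serine proteases, moved the other way. Ctsa, Ctsb, Ctsd, Ctsf and Ctsh rose, Ctsc fell, and Ctsl, Ctss, Ctsz and Cst3 were not called by limma at an adjusted p under 0.05. Thus 5 of 10 were called higher, where 14.7% of all genes tested were, and 1 of 10 was called lower, where 29.8% of all genes were. With the replicate number as a block, 7 were called higher and 1 lower, against 16.9% and 33.7% of all genes. The groups did not overlap for 8 genes that were higher and 1 that was lower, against 19.8% and 35.9% of all genes. The median log2 fold change of the 10 was 0.46, and that of all genes tested was -0.09. No member passed a fold of 2 with an unadjusted p under 0.05, the thresholds of the study, which 6.58% of all genes did. At an unadjusted p under 0.05 alone by limma, 8 of the 10 passed, as did 6940 of all 13266 genes tested. With no filter on low values, which adds the genes near 0 to the fit, 2 of the 10 were called, Ctsc and Ctsf. In that fit 3744 of 36870 genes were called.

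Ctsd, the aspartic endopeptidase that also starts the activation of other cathepsins, stood at 9086, 8626 and 7507 RPKM in the controls and at 14227, 13613 and 12198 RPKM in siTet1/Tet2. The lowest siTet1/Tet2 library was above the highest control library. The mean was 58.8% higher, and the log2 fold change was 0.67 (SE 0.20, adjusted p = 0.0254). It took 48.1% ± 0.46 of the summed level of the 10 genes in the controls and 54.3% ± 0.18 in siTet1/Tet2 (SD, n = 3 each). Without control replicate 2, siTet1/Tet2 replicate 1 or siTet1/Tet2 replicate 2 the adjusted p was 0.109, 0.0843 and 0.110, and quantile normalization set its difference to 0 because it held the same rank in every library.

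Ctsa, the carboxypeptidase that protects neuraminidase and beta-galactosidase in a lysosomal complex, was at 653, 629 and 524 RPKM in the controls. It was at 856, 865 and 796 RPKM in siTet1/Tet2, and the groups were apart. The mean was 39.4% higher, with a log2 fold change of 0.48 (SE 0.10, adjusted p = 0.00553). Pltp, a phospholipid transfer protein gene on the opposite strand, shares exon sequence with Ctsa and itself went from a mean of 176 to 323 RPKM (log2 fold change 0.87, adjusted p = 2.0e-05 by limma). Whether the counting used strand is not given in the sources used here, so reads of Ctsa and Pltp cannot be told apart where they overlap.

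The partners of cathepsin A in that complex were also higher. Glb1, beta-galactosidase, rose from 65.0 to 80.8 RPKM (adjusted p = 0.00228), and Neu1, neuraminidase 1, rose from 28.2 to 33.3 RPKM (adjusted p = 0.0298).

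Ctsb, Ctsl, Ctss and Ctsf are the cysteine endopeptidases. Ctsb, which can also trim dipeptides from the end of a chain, stood at 3397, 3353 and 2999.6 RPKM in the controls and at 4734, 4571 and 4174 RPKM in siTet1/Tet2, without overlap. Its mean was 38.2% higher (log2 fold change 0.47, SE 0.14, adjusted p = 0.0234). This call, like that of Ctsd, was lost without control replicate 2, siTet1/Tet2 replicate 1 or siTet1/Tet2 replicate 2 (adjusted p = 0.0861, 0.0861 and 0.101), and under quantile normalization the log2 fold change was 0.06.

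Ctsf, a broadly expressed endopeptidase of low abundance here, was at 5.96, 5.95 and 6.17 RPKM in the controls and at 12.7, 11.4 and 10.2 RPKM in siTet1/Tet2. Every siTet1/Tet2 library was well above every control library, and the SD of the controls was 0.127 RPKM. The ratio of the means was 1.90, and the log2 fold change of 0.82 (SE 0.09, adjusted p = 0.000197) was the highest of the 10.

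Ctsl, which degrades a wide range of lysosomal proteins, was at 1405, 1394 and 1176 RPKM in the controls and at 1766, 1681 and 1419.6 RPKM in siTet1/Tet2. The lowest siTet1/Tet2 library exceeded the highest control library only by a small margin. The log2 fold change was 0.29 (SE 0.13, adjusted p = 0.0930), which was not called, and with the replicate block the adjusted p was 0.0149.

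Ctss, the endopeptidase of antigen-presenting cells that cuts the invariant chain, was at 2142, 2149.9 and 1861 RPKM in the controls and at 2218, 2115 and 1920.3 RPKM in siTet1/Tet2. The groups overlapped, and the log2 fold change was 0.02 with a 95% interval of -0.25 to 0.30 (SE 0.12, adjusted p = 0.886). Its share of the summed level of the 10 genes was 11.8% ± 0.27 in the controls and 8.48% ± 0.052 in siTet1/Tet2, as the genes around it were higher. Levels of Ctsd over Ctss were 4.24, 4.01 and 4.03 in the controls and 6.42, 6.44 and 6.35 in siTet1/Tet2. The invariant chain gene Cd74, its substrate, was at only 2.50 and 1.65 RPKM (log2 fold change -0.42, adjusted p = 0.0846, and 0.00608 with the replicate block).

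**Figure D2:**
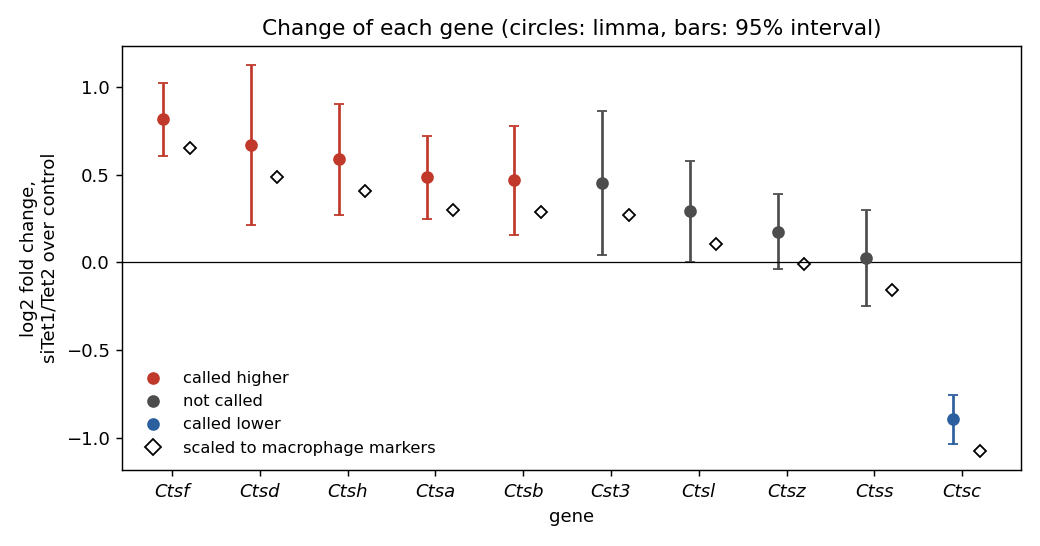
Difference between siTet1/Tet2 and control on the log2(RPKM + 1) scale for each of the 10 genes, with the 95% interval from limma and colours by call at an adjusted p under 0.05. Diamonds give the difference after each library was divided by the geometric mean of its macrophage markers, where Ctsc is at -1.08 and Ctsd at 0.49.

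Ctsc, Ctsh and Ctsz cut residues from chain ends, and of these Ctsc fell, Ctsh rose and Ctsz was not called. Ctsc encodes the dipeptidyl peptidase that matures neutrophil and lymphocyte granule proteases. Its level was 156, 157 and 149.8 RPKM in the controls and 78.1, 86.6 and 82.96 RPKM in siTet1/Tet2, with a narrow spread in each group and a wide gap between them. The mean decreased by 46.5%, and the log2 fold change of -0.89 (SE 0.06, adjusted p = 1.97e-05) was the one decrease that was called. The granule proteases that it matures (Elane, Prtn3, Gzma and Gzmb, chosen for this role) had means of at most 0.135 RPKM in either group and were not tested.

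Ctsh, an aminopeptidase that also acts in surfactant protein processing, stood at 219, 204 and 154 RPKM in the controls and at 317, 290.5 and 254 RPKM in siTet1/Tet2. The groups did not overlap, and control replicate 3 was well below the other controls. The log2 fold change was 0.59 (SE 0.14, adjusted p = 0.00929). Ctsc over Ctsh was 0.712, 0.771 and 0.975 in the controls and 0.246, 0.298 and 0.327 in siTet1/Tet2, so that the ratio was lower in each siTet1/Tet2 library than in any control.

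Ctsz, a carboxypeptidase that also binds integrins, was at 788, 779 and 682 RPKM in the controls and at 885, 857 and 793 RPKM in siTet1/Tet2. The groups were apart by a few RPKM. The log2 fold change was 0.17 with a 95% interval of -0.04 to 0.39 (SE 0.09, adjusted p = 0.163), which was not called.

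Cst3, cystatin C, is the secreted inhibitor that binds cysteine cathepsins in the fluid around cells. It was at 858, 807 and 526 RPKM in the controls and at 1028, 1027 and 887 RPKM in siTet1/Tet2. Control replicate 3 stood far below the other controls, and the highest control was still below the lowest siTet1/Tet2 library. The log2 fold change was 0.45 (SE 0.18, adjusted p = 0.0710), which was not called, and with the replicate block the adjusted p was 0.00781. The summed level of the 7 cysteine cathepsins over that of Cst3 was 9.45, 9.97 and 13.4 in the controls and 9.74, 9.36 and 9.76 in siTet1/Tet2. Those ranges overlapped, and the spread of the controls came from replicate 3.

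Replicate 3 was low for most of the family. In the controls, 9 of the 10 genes were lowest in replicate 3, in siTet1/Tet2 9 were, and 8 were lowest in both. The summed RPKM of all genes was also lowest in replicate 3, at 393277 against 431996 and 422422 in the controls. In siTet1/Tet2 it was 423635 against 440190 and 439115. How many of all genes were lowest in replicate 3 was not counted. Set against the mean of replicates 1 and 2, control replicate 3 differed by -36.8% for Cst3, the widest gap of the 10, and by -27.2% for Ctsh. The same difference for the summed macrophage markers was -20.9% in the controls and -14.4% in siTet1/Tet2, and for the summed stromal markers 19.5% and 50.7%. The part of these markers in the cathepsin levels of replicate 3 was not tested.

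Against the geometric mean of the macrophage markers, the increases were smaller. After each library was divided by the geometric mean of its 15 macrophage markers, a setting chosen after seeing the data, the log2 fold changes were 0.49 for Ctsd, 0.65 for Ctsf, 0.40 for Ctsh, 0.30 for Ctsa, 0.28 for Ctsb and -1.08 for Ctsc. These 6 genes kept their calls. Ctss was then at -0.16 and Ctsz at -0.01, neither called. This scaling moved the median of all genes by -0.14 on the log2 scale. The relative divisor was 0.866 to 0.984 in the controls and 1.05 to 1.08 in siTet1/Tet2. The summed macrophage markers differed more, with a ratio of siTet1/Tet2 to control means of 2.01. That ratio was above that of every member, the highest being 1.90 for Ctsf. A fit with the sum as divisor was not run.

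**Figure D3:**
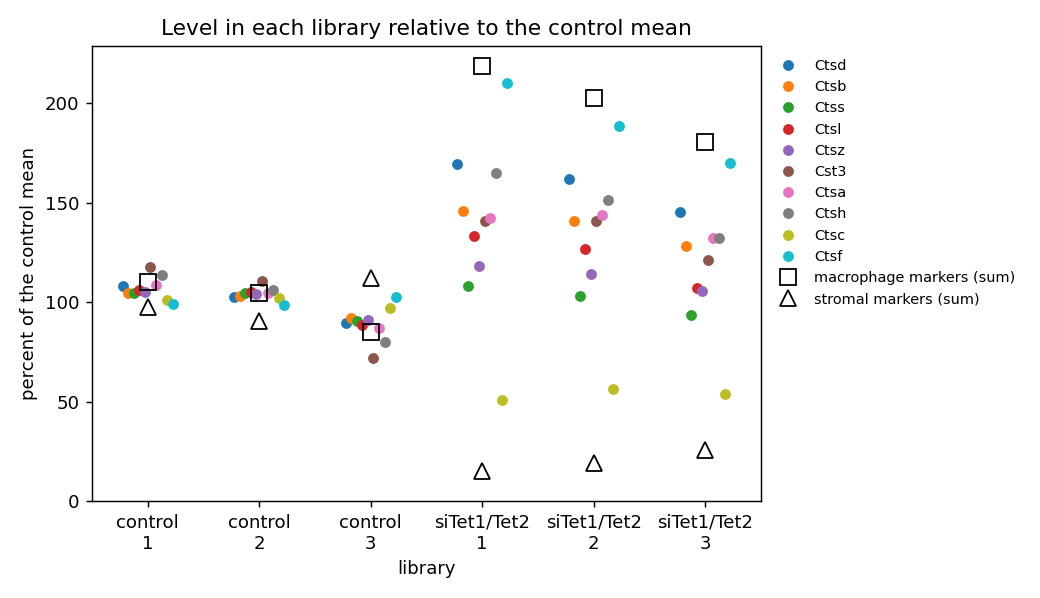
Level of each of the 10 genes in each library as a percent of its control mean, with the summed macrophage markers as squares and the summed stromal markers as triangles. All but Ctsf lie below their control mean in control replicate 3, and Ctsc lies apart from the other 9 genes in the 3 siTet1/Tet2 libraries.

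Most other cathepsins were scarce. Of 14 further cathepsin genes in the table, 7 were at the lowest listed value in all 6 libraries and 3 could be tested. Ctsk, the collagen-degrading cathepsin of osteoclasts, was at 11.7, 10.7 and 9.43 RPKM in the controls and rose to 13.1, 14.7 and 15.0 RPKM (log2 fold change 0.40, adjusted p = 0.00921). Ctso rose from a mean of 20.3 to 24.8 RPKM (adjusted p = 0.00809). Over all 6 libraries, the means of Ctsk (12.4 RPKM) and Ctso (22.6 RPKM) were above that of the member Ctsf (8.72 RPKM).

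Among 23 further inhibitors, 22 were in the table, 12 were at the lowest listed value throughout and 6 could be tested. Of these 6, 1 was called higher and 3 lower, against 14.7% and 29.8% of all genes. Cstb, the cystatin that acts inside the cell, was at 591, 554 and 363 RPKM in the controls and at 743, 717 and 607 RPKM in siTet1/Tet2, with the same low control replicate 3 as Cst3. It was not called (log2 fold change 0.48, adjusted p = 0.0590), and with the replicate block the adjusted p was 0.00343. Ctla2a, which resembles the propeptide of cysteine cathepsins and inhibits cathepsin L, rose from 12.3 to 27.2 RPKM (log2 fold change 1.10, adjusted p = 0.000360). Its near-identical paralog Ctla2b stood at 112 and 116 RPKM with no call (adjusted p = 0.718), and how reads that match both were assigned is not given in the sources used here. The 3 that were called lower, named after their values were seen, were Cst6 (mean 1.34 RPKM in controls, 0.589 in siTet1/Tet2), Cst7 (0.609 and 0.208) and Serpina3g (1.68 and 0.271), all of low abundance.

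Of the genes that sort and activate cathepsins, all 10 were tested, and 6 were called higher and none lower, against 14.7% and 29.8% of all genes. Sort1, sortilin, a receptor that carries cathepsins and prosaposin to the lysosome, was at 10.7, 10.9 and 10.2 RPKM in the controls and at 64.6, 62.0 and 58.1 RPKM in siTet1/Tet2. Its log2 fold change of 2.43 (adjusted p = 4.26e-07) far exceeded that of any cathepsin. Tfeb and Tfe3, transcription factors of lysosomal genes, rose from 14.1 to 22.3 RPKM (adjusted p = 0.000195) and from 29.2 to 36.4 RPKM (adjusted p = 0.00349). Their relative Mitf rose from 9.01 to 11.4 RPKM (adjusted p = 0.0318). Igf2r, the large mannose 6-phosphate receptor, rose from 49.5 to 61.9 RPKM (adjusted p = 0.0456) with groups that overlapped. Gnptab, which makes the mannose 6-phosphate tag, rose from 41.2 to 47.4 RPKM (adjusted p = 0.0274). The calls of Mitf, Igf2r and Gnptab were each lost when any 1 library other than control replicate 3 was left out, with adjusted p up to 0.112, 0.141 and 0.104. They were also lost when each library was rescaled to the same sum (adjusted p = 0.120, 0.148 and 0.188), which left 3 of the 10 called higher, Sort1, Tfeb and Tfe3. M6pr, Nagpa, Gnptg and Lgmn, the protease that matures several cathepsins, were not called (adjusted p = 0.0879, 0.0545, 0.558 and 0.473).

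Of the partners and substrates, 5 could be tested, and 3 were called higher and none lower, against 14.7% and 29.8% of all genes. Psap, prosaposin, which cathepsin D cleaves into saposins, was at 4488, 4521 and 4411 RPKM in the controls and rose to 8905, 8471 and 7958 RPKM (log2 fold change 0.92, adjusted p = 0.00172), but after quantile normalization its log2 fold change was -0.23 (adjusted p = 0.0113). Neu1, described above, lost its call without control replicate 2, siTet1/Tet2 replicate 1 or siTet1/Tet2 replicate 2 (adjusted p up to 0.111), and after rescaling to the same sum (adjusted p = 0.0506). Grn, progranulin, was at 1244 and 1211 RPKM with no call (adjusted p = 0.738). After scaling to the macrophage markers Ctsk, Ctso, Tfe3, Mitf, Igf2r, Gnptab, Neu1 and Glb1 were no longer called, while Ctla2a, Sort1, Tfeb and Psap were, and Grn (-0.22, adjusted p = 0.0399) and Cd74 (-0.54, adjusted p = 0.0394) were then called lower. Grn was also called lower after quantile normalization (-0.30, adjusted p = 0.0112). The median log2 fold change was 0.27 for the other cathepsins tested, -0.17 for the inhibitors, 0.25 for the sorting and activation genes and 0.23 for the partners and substrates, beside -0.09 for all genes.

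**Figure D4:**
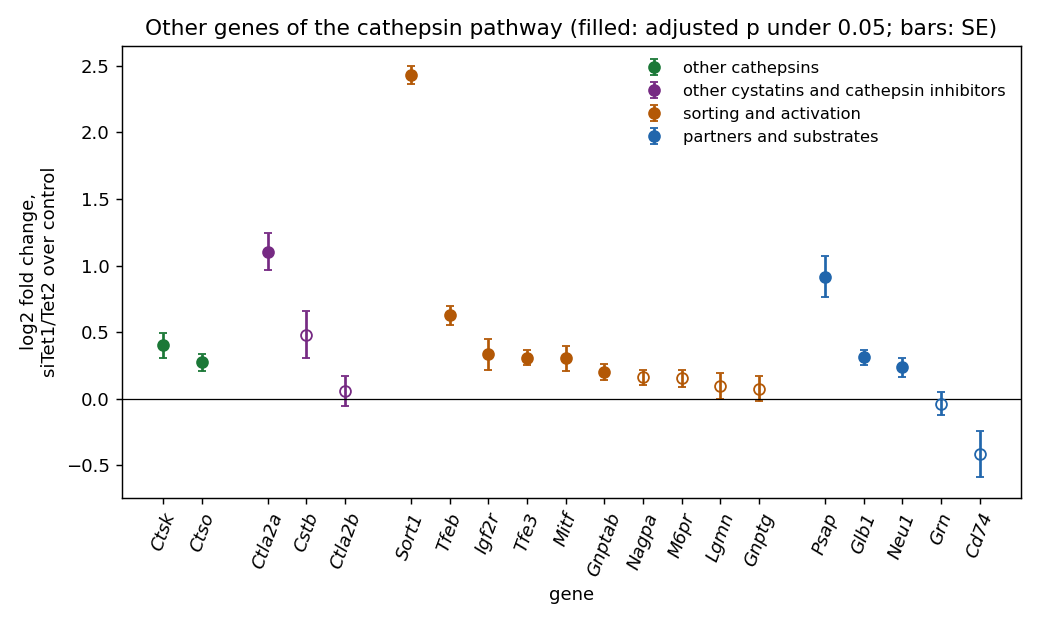
Difference between siTet1/Tet2 and control, log2(RPKM + 1), for genes of the other cathepsin-pathway lists with a mean level of 1 RPKM or more. Bars are standard errors and filled points have an adjusted p under 0.05, with Sort1 at 2.43.

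The starts of the genes were compared for short motifs, because several members were higher together. Promoter windows of 250 bases before to 50 bases after the start were available from RefSeq (GRCm38.p6) for 8 of the 10 members, all but Ctsb and Ctsh. The motif CACGTG, the core bound by many basic helix-loop-helix factors including the TFEB family, was found on either strand in the windows of Ctsa, Ctsd, Ctsf and Ctsl, 4 of 8, and in 7.15% of 32851 windows of the same length. Ctsa, Ctsd and Ctsf rose and Ctsl did not pass the test. The longer TCACGTGA, which contains it, was found in Ctsa and Ctsd and in 0.97% of all windows. A member was counted if any of its windows held the motif, while the percent is of single windows. Ctsa also had a window at chr2:164832622-164832921, which held neither CACGTG nor TCACGTGA. GAGGAA was found in Cst3, Ctsc and Ctss and in 28.28%, TATAAA in Ctss and 13.62%, GGGCGG in Cst3, Ctsc, Ctsd, Ctsf, Ctss and Ctsz and 35.66%, and TGANTCA in no member and 7.81%. The motifs were chosen with the values known, and a match is a description of letters, not a site. The 150 bases before the RefSeq start of Ctsd, Ctsa (the start at 164833773), Ctsf and Ctsc, and the first 150 of the 250 bases before that of Ctsl, are printed 5′ to 3′ on the strand of the gene. They show where CACGTG, in capitals, lies in the 4 members that hold it, and beside them Ctsc, the member that fell, which holds none. The windows of Cst3, Ctss and Ctsz, not printed, held none either. Of these, Cst3 and Ctsz were higher in siTet1/Tet2 without overlap but not called, and Ctss overlapped. A link between the motif and the differences was not tested.
Ctsd, chr7:142387828-142387977, minus strand: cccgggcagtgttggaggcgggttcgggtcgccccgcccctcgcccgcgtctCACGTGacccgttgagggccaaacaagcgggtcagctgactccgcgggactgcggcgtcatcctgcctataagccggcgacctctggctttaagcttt
Ctsa, chr2:164833623-164833772, plus strand: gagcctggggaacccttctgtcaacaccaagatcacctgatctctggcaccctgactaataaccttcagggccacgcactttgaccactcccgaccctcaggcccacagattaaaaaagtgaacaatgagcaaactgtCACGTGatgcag
Ctsf, chr19:4855015-4855164, plus strand: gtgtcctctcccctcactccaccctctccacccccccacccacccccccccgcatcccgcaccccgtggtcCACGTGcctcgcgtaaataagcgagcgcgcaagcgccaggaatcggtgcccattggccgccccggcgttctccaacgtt
Ctsl, chr13:64370621-64370770, minus strand: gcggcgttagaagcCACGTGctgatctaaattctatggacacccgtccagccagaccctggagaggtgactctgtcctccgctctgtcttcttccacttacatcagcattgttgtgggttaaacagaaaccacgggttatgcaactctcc
Ctsc, chr7:88277935-88278084, plus strand: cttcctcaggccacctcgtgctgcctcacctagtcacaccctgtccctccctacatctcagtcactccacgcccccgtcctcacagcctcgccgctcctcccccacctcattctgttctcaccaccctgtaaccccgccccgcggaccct
By the GENCODE M21 spans given below, the printed stretches of Ctsd, Ctsa and Ctsl lie inside the gene. That of Ctsf lies partly inside, with its CACGTG before the gene, and that of Ctsc lies outside. Counted from the RefSeq start to its first base, CACGTG lay at -98 in Ctsd, -12 in Ctsa, -79 in Ctsf and -236 in Ctsl. A further copy lay at -245 in Ctsd, and a further copy in Ctsa at base 6 of the transcript. The Ctsd window held 33 CpG dinucleotides, more than 91.4% of all windows, and those of the other members held between 5 (Ctss) and 19 (Ctsf), against a median of 7 over all windows. Ctsc, the member that fell, held 12. Methylation was not measured in these libraries.

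On GRCm38 with GENCODE M21 the members are protein-coding genes on 7 chromosomes. Ctsa is at chr2:164832873-164841032, Ctsz at chr2:174427493-174439039 and Cst3 at chr2:148871722-148875692. Ctsc is at chr7:88278085-88310888 and Ctsd at chr7:142375911-142388038. Ctsb is at chr14:63122462-63145923, Ctsf at chr19:4855130-4860918, Ctsh at chr9:90054152-90076089, Ctsl at chr13:64359337-64370890 and Ctss at chr3:95526786-95556403. Ctsb and Ctsz each share exon sequence with a gene on the opposite strand (Fdft1 and Nelfcd), which were listed at no more than 7.78 and 15.8 RPKM. Ctsd shares exon sequence with the same-strand gene Gm49369, and Ctsl with a processed pseudogene, Gm49230, neither of which was matched to a row of the table.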

How the data were processed

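RNA-seq of 3 control and 3 siTet1/Tet2 libraries was examined. The authors trimmed adaptors, mapped paired-end reads to GRCm38, estimated abundance with DNASTAR Lasergene, and deposited RPKM values (FPKM in their methods) in 36915 rows. Annotation, use of strand and handling of reads matching several places are not given in the sources used here. The deposited table also holds the authors' p-value per row, a result of their own comparison, which was not used.

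For 37 symbols listed more than once, only the row of highest mean was used. Genes averaging 0.1 RPKM or more across all 6 libraries were compared on log2(RPKM + 1) by a two-sided limma test (version 3.58.1, R 4.3.3, eBayes with a mean-variance trend) with Benjamini-Hochberg adjustment over 13266 genes. A fold change on this scale understates the change of genes with low RPKM. Standard errors and 95% intervals are from that fit. Sums, shares and ratios of levels were described without a test. An exact permutation test of 1 gene cannot reach a p under 0.1 with 3 libraries in each group. The fit was also run on simulated data in which 200 genes were changed. As 5905 genes were called here, that run does not show how the fit performs on these data. Positions are from GENCODE M21 and promoters from RefSeq, read in Python 3.11.15.

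The table gives no read totals. The depth at which low values of genes with 1 transcript came closest to whole reads was 32400000 to 38500000 reads, but only 51.4% to 57.7% of those values lay within 0.1 of a whole read, at a depth chosen for its match, so no count test was run.

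Replicate numbers are shared between the groups. Deviations from the group means were correlated across genes between same-numbered libraries (r = 0.149, 0.117 and 0.462). Each was above 0.1, and the number was therefore used as a block in a second fit. No source says what the numbers mean, so the pairing comes from the values only. The unmatched pair of control replicate 1 and siTet1/Tet2 replicate 2 gave 0.332. That of control replicate 2 and siTet1/Tet2 replicate 1 gave 0.205. Both were above the matched pairs of replicates 1 and 2, so only replicate 3 stood out as matched, and calls that rest on the block are uncertain.

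The members and the lists were chosen with earlier results of these data known. The genes named were all members, the Tet genes, genes of the other cathepsin-pathway lists averaging 1 RPKM or more, and of each marker list the 3 highest and any at 0.001 RPKM throughout. Alternatives were pseudocounts, filters, scalings, eBayes without trend, summed rows, the replicate block, each library left out and, added after seeing the data, scaling to macrophage markers.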

Additional observations from a re-analysis of the deposited data

How the results depend on the processing

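Ctsc (-1.08 to -0.80) and Ctsf (0.65 to 0.96 on the log2 scale) kept direction and call under all 17 alternatives. With no filter on low values, 2 members were called, 1 of them higher, with 8 calls in the pathway lists and 3744 over all genes (1230 higher and 2514 lower), against 6, 5, 15 and 5905 (1953 and 3952). Quantile normalization gave 3607 higher and 2627 lower over all genes, moved their median by 0.14, called Ctsl and Ctss (0.17, adjusted p = 0.0154 by limma) higher, and turned Psap to -0.23 and Lgmn to -0.11. Scaling to the macrophage markers, chosen after seeing the data, gave 1 altered member (Ctsc), 9 pathway calls and 1059 higher over all genes, and turned Ctss to -0.16, Ctsz to -0.0088, Ctla2b to -0.13, M6pr to -0.0308, Gnptg to -0.10, Nagpa to -0.0196, Lgmn to -0.0915 and Tet3 to -0.0411. Rescaling to the same sum left 12 pathway calls, without Igf2r, Gnptab, Mitf and Neu1 and with Cstb, and turned Ctss to -0.0395 and Ctla2b to -0.0069. Without the trend in eBayes, Igf2r lost its call (adjusted p = 0.0583). The SE of Ctsd was then 0.0962, against 0.198 with the trend, and that of Ctsb 0.0821, against 0.136. Median ratio scaling turned Grn to 0.0598, and it and quantile normalization called M6pr, Nagpa and Cstb higher. The cause was not tested.

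Leaving out 1 library at a time left 4 to 7 members called, 3 to 6 of them higher, 9 to 16 pathway calls and 1403 to 2021 higher and 3016 to 4142 lower over all genes. The 3 higher came without control replicate 2, siTet1/Tet2 replicate 1 or siTet1/Tet2 replicate 2, and the 9 pathway calls without siTet1/Tet2 replicate 1. The uncalled log2 fold changes of Ctss (-0.0446 to 0.0817), Ctla2b (-0.0558 to 0.15) and Gnptg (-0.033 to 0.14) changed sign. Cst3 gained its call without control replicate 1 (0.59, adjusted p = 0.0348) and after rescaling to the same sum or by median ratios. The replicate block called 8 members and, among the genes named, changed no call but those of Ctsl, Cst3, Cstb, Cd74 and the macrophage markers Emr1 (adjusted p = 0.0360) and Fcgr3 (adjusted p = 0.00599). Depth was estimated, not given, and limits Tet1 and other genes near the lowest listed value.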

Other observations

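Genes of osteoclasts, cells that secrete cathepsin K onto bone, were described beside Ctsk. Of 8 osteoclast markers 5 could be tested, and 2 were called higher by limma and none lower, against 14.7% and 29.8% of all genes. Without overlap of the groups, 3 of the 5 were higher and 2 lower, against 19.8% and 35.9% of all genes. Those 2, named after their values were seen, were Mmp9 (mean 0.535 RPKM in controls, 0.374 in siTet1/Tet2) and Ocstamp (0.178 and 0.0597). Atp6v0d2, a proton pump subunit, was at 58.4, 58.9 and 55.5 RPKM in the controls and rose to 151, 129.8 and 137 RPKM in siTet1/Tet2 (log2 fold change 1.26, adjusted p = 7.20e-06). Acp5, tartrate-resistant acid phosphatase, rose from 3.61, 4.88 and 2.66 RPKM to 9.11, 10.8 and 11.4 RPKM (log2 fold change 1.30, adjusted p = 0.000439). The factor gene Nfatc1 was at 9.82, 9.64 and 10.9 RPKM and at 11.4, 11.5 and 11.5 RPKM, with no call (adjusted p = 0.111).

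Of the neutrophil markers, 3 could be tested. Csf3r rose from a mean of 6.92 to 15.0 RPKM (adjusted p = 3.85e-05) and S100a8 from 1.95 to 12.7 RPKM (adjusted p = 4.13e-05), while Camp fell from 1.45 to 0.058 RPKM (adjusted p = 5.52e-05).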
